A study of Saccharomyces cerevisiae with 15 samples.

Results

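The step from the EC10 to the EC50 dose of ytterbium (Yb, a heavy rare earth element) was described in the budding yeast Saccharomyces cerevisiae as the 3 RNA libraries of cells at Yb EC50 against the 3 at Yb EC10. Of the 6600 gene identifiers in the table, the 5568 whose normalized counts averaged 10 or more across these 6 libraries were taken, and the step itself uses 6 of the 15 libraries of the series. All groups were of strain BY4741, a common laboratory strain, grown in YNB medium that held β-glycerophosphate. Each had 3 libraries: Yb at 8 µM (EC50), Yb at 6 µM (EC10), the lighter rare earth lanthanum (La) at 160 µM (EC50) and at 50 µM (EC10), and untreated cells as control. Exposures lasted 1 h. EC10 and EC50 are the doses labelled as having 10% and 50% effect, and the labels do not name the effect. The labels do not state whether the 3 libraries of a group are separate cultures, so the spread behind each p-value is that between libraries and may be technical.

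Lanthanides are trivalent ions that bind where calcium and other cations bind, and that form poorly soluble salts with phosphate. Budding yeast answers damage at its surface through the cell wall integrity pathway, in which the kinase Slt2 activates the factor Rlm1, and through calcium, calcineurin and the factor Crz1. A general stress program driven by the factors Msn2 and Msn4, which bind the stress response element, accompanies many exposures and slow growth, and the genes of ribosomal proteins usually move against it. Phospholipid genes, INO1 above all, answer to the Ino2/Ino4 activator and its repressor Opi1.

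The sequences below are those of genes named in the results. The first 4 are the 250 bases before the coding start in build R64 of the RefSeq yeast assembly, read 5′ to 3′ on the gene's strand. The promoter of INO1, which encodes inositol-3-phosphate synthase, is shown with the core of the Ino2/Ino4 site, CATGTG or its reverse complement, in capitals, since INO1 had the smallest adjusted p of the step together with CMK2. Next are the promoters of CMK2 (a calcium and calmodulin-dependent kinase) and NTH1 (neutral trehalase, which degrades trehalose). That of HSP12 (a small stress protein of the plasma membrane) follows. In these the stress response element AGGGG, or its reverse complement, is in capitals, since stress genes were higher on median. HSP12 had no adjusted p under 0.05 in the step, and CMK2 is not on the stress list. The last sequence is the whole coding sequence of YDL085C-A, one of the largest falls, with start and stop codons in capitals, since most of the falls were in short genes.
INO1 promoter (chrX:135934-136183, minus strand): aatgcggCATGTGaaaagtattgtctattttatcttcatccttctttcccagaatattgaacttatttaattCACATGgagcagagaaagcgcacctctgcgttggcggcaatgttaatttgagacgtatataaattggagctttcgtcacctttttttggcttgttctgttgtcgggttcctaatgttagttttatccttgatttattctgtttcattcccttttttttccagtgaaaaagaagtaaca
CMK2 promoter (chrXV:296121-296370, minus strand): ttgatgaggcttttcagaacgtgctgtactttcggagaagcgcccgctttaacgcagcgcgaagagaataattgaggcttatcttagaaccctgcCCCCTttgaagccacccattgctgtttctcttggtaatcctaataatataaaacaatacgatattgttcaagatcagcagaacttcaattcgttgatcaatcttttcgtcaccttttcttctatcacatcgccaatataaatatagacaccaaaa
NTH1 promoter (chrIV:452476-452725, minus strand): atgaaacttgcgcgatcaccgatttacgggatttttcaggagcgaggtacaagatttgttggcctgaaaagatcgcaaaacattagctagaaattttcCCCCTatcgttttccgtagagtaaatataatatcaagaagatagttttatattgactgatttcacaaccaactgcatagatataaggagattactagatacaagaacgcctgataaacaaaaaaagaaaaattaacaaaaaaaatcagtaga
HSP12 promoter (chrVI:107006-107255, plus strand): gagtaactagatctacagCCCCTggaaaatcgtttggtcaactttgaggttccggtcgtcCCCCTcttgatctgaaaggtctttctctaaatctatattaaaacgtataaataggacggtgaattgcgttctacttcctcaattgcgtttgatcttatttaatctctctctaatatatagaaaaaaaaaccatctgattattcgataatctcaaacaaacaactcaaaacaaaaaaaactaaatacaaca
YDL085C-A coding sequence (chrIV:302464-302670, minus strand): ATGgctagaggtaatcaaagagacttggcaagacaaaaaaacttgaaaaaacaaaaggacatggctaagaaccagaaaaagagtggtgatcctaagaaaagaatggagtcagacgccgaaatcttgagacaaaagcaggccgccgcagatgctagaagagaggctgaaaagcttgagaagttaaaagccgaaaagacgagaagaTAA

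The values were gene counts that the authors had divided by 1 size factor per library, called normalized counts here. The 6 Yb libraries held between 6122514 and 6895514 recovered reads, so depth was alike. As a check of the strain, the genes URA3, MET17 and LEU2 that BY4741 lacks had 0 reads in the 9 Yb and control libraries, apart from 1 read of LEU2 in library 7. HIS3, of which this strain carries a partial deletion, had 349.9 to 507 normalized counts. Of the 7 mating genes of the a type, the type of this strain, limma called 0 in the step, with 1 at an unadjusted p under 0.05. Of the 4 α-type genes, MF(ALPHA)1 and MF(ALPHA)2 reached at most 11.7 and 5.32 normalized counts, while STE3 had 50.4 to 69.2 and SAG1 212 to 276, so the α-type genes were not all near 0.

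Library 7 of Yb EC10 stood apart from its own group. Over all genes, the chi-square of its counts per degree of freedom was 7.47 to 7.93 against the 3 Yb EC50 libraries, but 25.0 and 16.9 against Yb EC10 libraries 8 and 9. Libraries 8 and 9 differed from each other by 12.3 on that measure, and the Yb EC50 libraries from each other by 4.44 to 9.92. On the leading principal component of the 6 libraries, with 55.4% of the variance, Yb EC50 libraries 4, 5 and 6 lay at 13.1, 4.61 and 7.40, and Yb EC10 libraries 7, 8 and 9 at 2.43, -15.6 and -11.9. The expression profile of library 7 was therefore closer to the higher dose than to its own, and the results are given with it and without it. The labels do not set it apart, and it was kept.

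**Figure D1:**
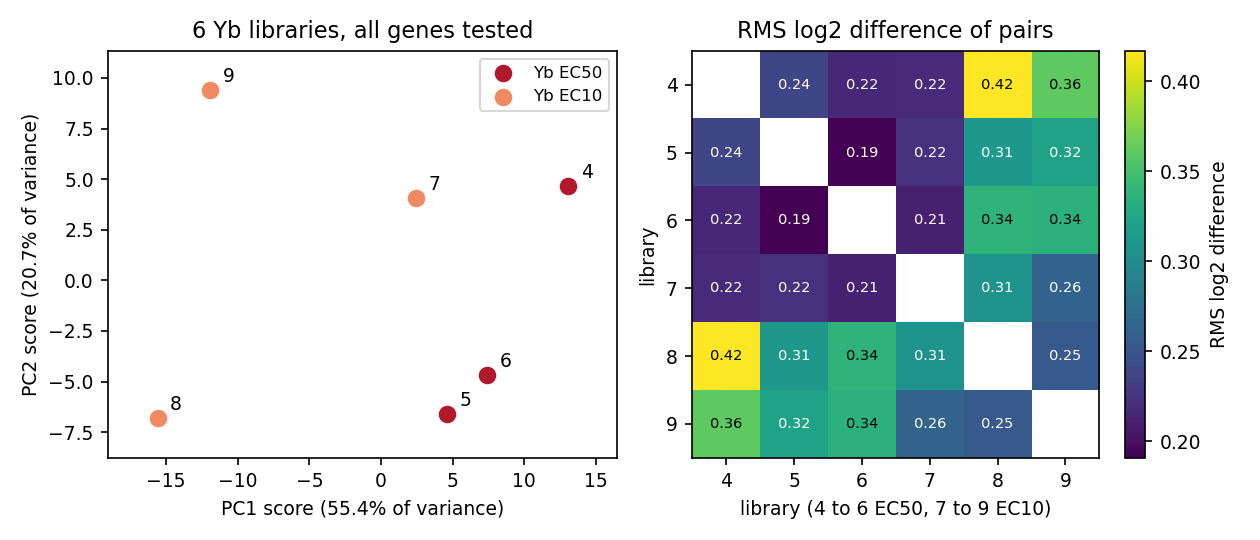
Scores of the 6 Yb libraries on the first 2 principal components of log2 values (left), and the root mean square log2 difference over 5568 genes for each pair of libraries (right, library numbers on both axes, colour and printed value in log2 units). Yb EC10 library 7 lies at 2.43 on the leading component, between Yb EC50 libraries 4 to 6 and Yb EC10 libraries 8 and 9.

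At the higher dose a small set of genes rose, most of them already above control at the lower dose, among them INO1 of phospholipid synthesis, the kinase gene CMK2, cell wall genes and the glutamine synthetase gene GLN1. Another set, mostly of short genes such as CSN9 and DAD2, fell below its control level. With limma, 61 genes were called at an adjusted p under 0.05 (1.10% of those tested), 39 higher (0.700%) and 22 lower (0.395%) at Yb EC50. Their adjusted p ran between 0.0095 and 0.0483, and 1 of the rises and 9 of the falls were at least 2-fold. The median log2 change over all genes was 0.02. In all 61 the ranges of both groups stood apart, which held for 1266 genes or 22.7% of those tested. At an unadjusted p under 0.05 there were 1079 genes (19.4%). In 60 of the 61 called genes library 7 lay between the Yb EC50 mean and both other Yb EC10 libraries. In 38 of the 39 rises it was the highest of the Yb EC10 libraries, and in 22 of the 22 falls it was the lowest.

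The number called depended on single libraries. Without Yb EC10 library 7 it was 537 (9.64%), with 232 higher (4.17%) and 305 lower (5.48%), and all 61 were among them in the same direction. The log2 changes of the 14 largest rises reported, 0.52 to 0.82 with all libraries, were then 0.56 to 0.98, and those of the 15 largest falls, -1.83 to -0.55 with all libraries, were -2.29 to -0.65. Without Yb EC50 libraries 4, 5 and 6 it was 4, 0 and 2, and without Yb EC10 libraries 8 and 9 it was 0 and 1. The gene called without library 9 was not among the 61. The 2 counts of 0 had 1034 and 790 genes at an unadjusted p under 0.05. Without La EC50 libraries 10, 11 and 12 it was 32, 21 and 28, without La EC10 libraries 13, 14 and 15 it was 13, 203 and 18, and without control libraries 1, 2 and 3 it was 19, 78 and 20. Fitted to the 6 Yb libraries alone, limma called 0 genes, with 972 at an unadjusted p under 0.05. On whole reads of the 9 Yb and control libraries edgeR called 2 genes (0.0359%), 1 of them among the 61, with 1033 at an unadjusted p under 0.05. DESeq2 called 240 (4.31%), which included all 61. Each call below is therefore a call of the fit to all 15 libraries, in which the groups share an estimate of the spread.

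INO1 (YJL153C, chromosome X, 134332 to 135933, minus strand, 1 coding exon) had 6803, 5920.3 and 5308 normalized counts in the Yb EC50 libraries, against 4197, 2874 and 3206 in the Yb EC10 libraries. All 3 libraries at the higher dose lay above all 3 at the lower one, and library 7 was the nearest to them. The means were 6011 ± 752 at Yb EC50 and 3425 ± 688 at Yb EC10 (SD, n = 3 each), 1.75-fold higher at Yb EC50, and the log2 change was 0.82 ± 0.11 (SE, limma adjusted p = 0.0095), or 0.98 ± 0.09 without library 7. Control libraries held 113 to 127 normalized counts, and INO1 was already far above them at the lower dose, with a log2 change of 4.78 between Yb EC10 and control. In cultures measured in bulk, more cells that express a gene and more of its RNA per cell cannot be told apart. Of the 22 Ino2/Ino4 phospholipid genes INO1 alone was called in the step, and 11 of the 22 had a positive change, with a median log2 change of 0.01.

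CMK2 (YOL016C, chromosome XV, 294777 to 296120, minus strand, 1 coding exon), a target of Crz1, had 1457, 1350.1 and 1209 normalized counts at Yb EC50, against 989.6, 754 and 823 at Yb EC10. The groups did not overlap, and the log2 change was 0.65 ± 0.09 (SE, adjusted p = 0.0095). The other calcineurin targets called were GSC2, the stress-induced catalytic subunit of glucan synthase, and YPS1, an aspartyl protease anchored at the cell surface. Both also belong to the cell wall list. In all, 3 of 19 calcineurin targets were called higher, against 0.700% of all genes, and 0 lower. Their median log2 change was 0.07, against 0.02 over all genes. At an unadjusted limma p under 0.05 were 8 of the 19 (42.1%, against 19.4% of all genes). DESeq2 called 4, against 4.31% of all genes, and edgeR 0. The control libraries had 421 to 473 normalized counts of CMK2.

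Of the 27 Slt2/Rlm1 cell wall integrity targets 6 were called higher by limma, against 0.700% of all genes, and 0 lower. Their median log2 change was 0.22, against 0.02 over all genes. At an unadjusted limma p under 0.05 were 15 of the 27 (55.6%, against 19.4% of all genes). DESeq2 called 7, against 4.31% of all genes, and edgeR 0. In 18 of the 27 every Yb EC50 library lay above every Yb EC10 library, as in 12.2% of all genes tested. NCW2, a cell wall protein with a lipid anchor, had 3433, 3598 and 3349 normalized counts at Yb EC50, against 2739.9, 2337 and 2162 at Yb EC10, a log2 change of 0.53 ± 0.08 (SE, adjusted p = 0.0166). GSC2 had 1942, 1743 and 1626 at Yb EC50, against 1512, 1188 and 1214 at Yb EC10 (log2 change 0.45 ± 0.09, adjusted p = 0.0415). Here the gap between the nearest libraries of both doses was smaller than the spread within either dose.

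The other members called were CRG1, a methyltransferase known for resistance to cantharidin (0.46 ± 0.09), SRL3 (0.40 ± 0.09), YPS1 (0.39 ± 0.08) and the kinase gene SLT2 itself (0.39 ± 0.09), the last named after its values were seen. SLT2 had 1414, 1404 and 1365 normalized counts at Yb EC50, against 1126, 1054 and 1010.4 at Yb EC10, with control libraries at 409 to 494. Its ranges stood well apart, with a spread within each group smaller than the step. Without library 7, 9 of the 27 were called higher, against 4.17% of all genes, and 0 lower. The median was then 0.24, so the list's median moved little with that library. Median deviations of the list from the mean of all 15 libraries were 0.28, 0.33 and 0.29 log2 units in Yb EC50 libraries 4, 5 and 6, and 0.14, 0.02 and 0.12 in Yb EC10 libraries 7, 8 and 9.

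**Figure D2:**
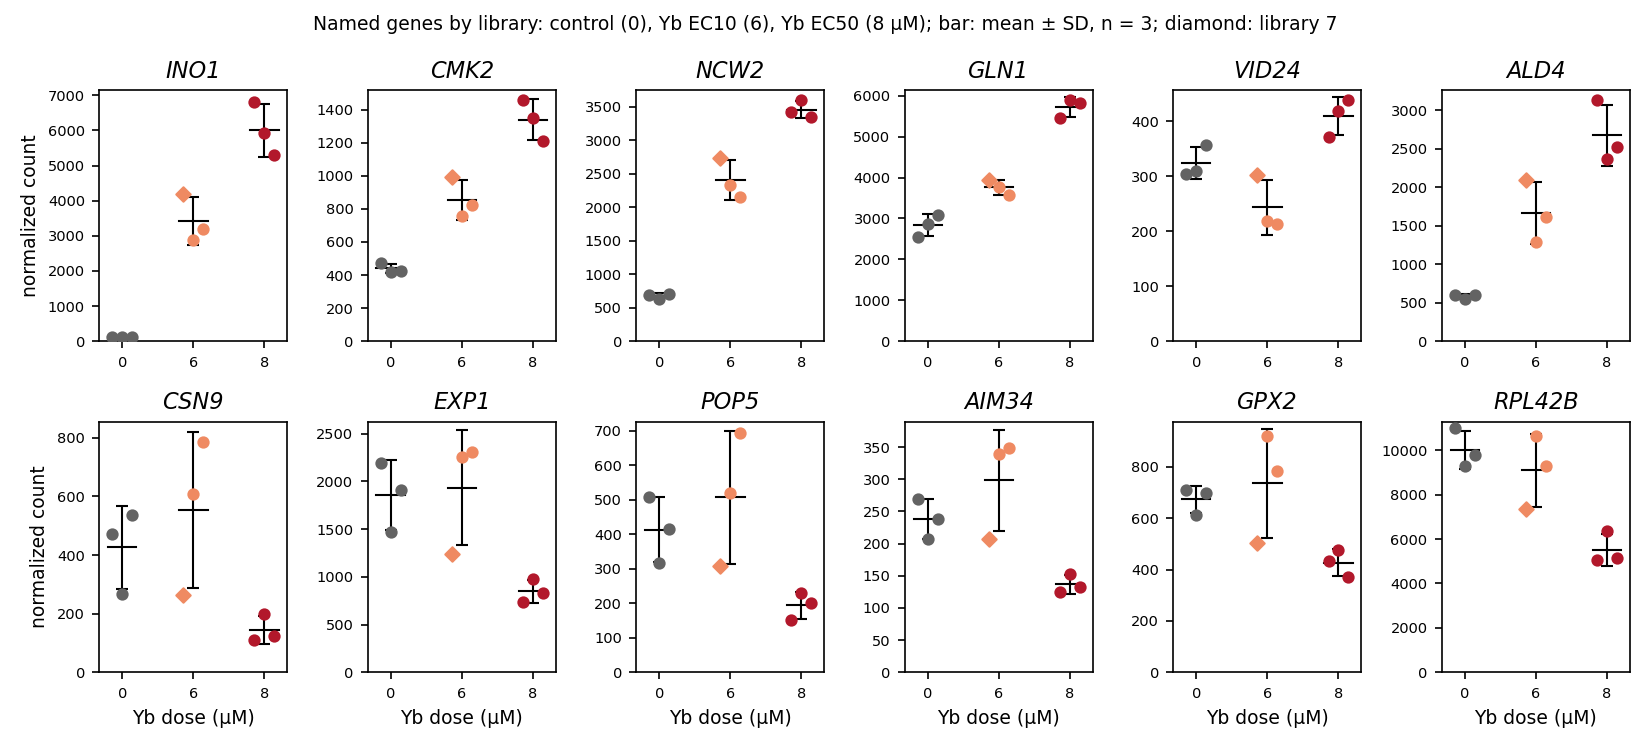
Normalized counts of 12 named genes in each library by Yb dose in µM (control 0, Yb EC10 6, Yb EC50 8), with the mean ± SD of each group (n = 3) and Yb EC10 library 7 as a diamond. The upper row holds rises and the lower row falls; INO1 stands at 5308 to 6803 at 8 µM and 2874 to 4197 at 6 µM, and in the falls library 7 is the lowest of the libraries at 6 µM.

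Genes of nitrogen and carbon metabolism were also among the rises. GLN1, glutamine synthetase, had 5457, 5895 and 5817 normalized counts at Yb EC50, against 3945, 3771 and 3569 at Yb EC10, with the 3 libraries of each dose close together. Its log2 change was 0.61 ± 0.11 (SE, adjusted p = 0.0251). DUR12, the urea amidolyase that breaks urea down to ammonia, had 857, 703 and 754 at Yb EC50, against 615, 423 and 458 at Yb EC10 (0.64 ± 0.11, adjusted p = 0.0251). GLN1 was the 1 called of 46 Gcn4 amino acid synthesis genes, and the median of that list was 0.03.

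ALD4, the mitochondrial aldehyde dehydrogenase, had 3125, 2370.0 and 2525 normalized counts at Yb EC50, against 2092, 1292 and 1613 at Yb EC10 (0.70 ± 0.14, adjusted p = 0.0412). IDH1, a subunit of the isocitrate dehydrogenase of the citrate cycle, had 1036, 1023 and 1009 at Yb EC50, against 828, 768 and 775 at Yb EC10 (0.37 ± 0.07, adjusted p = 0.0251). IDH1 differed little between libraries of a dose, and its Yb EC10 mean of 790.2 ± 32.5 lay below its control mean of 921 ± 62.2 (SD, n = 3 each). VID24, a substrate receptor of the ubiquitin ligase that degrades gluconeogenic enzymes, likewise lay below control at the lower dose. It had 371, 417 and 438 at Yb EC50, against 301, 218 and 212 at Yb EC10 (0.76 ± 0.14, adjusted p = 0.0251), with 304 to 356 in control. These were the 2 exceptions among the 39 rises, of which 37 had a Yb EC10 mean above the control mean.

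PRB1, the vacuolar protease B, rose by 0.52 ± 0.12 on the log2 scale and was the 1 called of 31 autophagy genes (list median 0.17). NTH1 rose by 0.50 ± 0.11, and ICT1, a lysophosphatidic acid acyltransferase on the Pdr1/Pdr3 list, by 0.48 ± 0.08. PUN1, a plasma membrane protein of the eisosome list, rose by 0.43 ± 0.09. Further rises were AIM17 (0.67 ± 0.14), RCR1 (0.63 ± 0.12), YOR385W (0.63 ± 0.12), MAL33 (0.54 ± 0.12), DIA1 (0.53 ± 0.10) and YPL088W (0.52 ± 0.08). RCR1 is a membrane protein known from resistance to Congo red and MAL33 an activator of maltose genes. DIA1 overlaps YMR316C-A on the opposite strand. Its reads may be shared if counting ignored the strand, a setting that is not given. Adjusted p-values of these 10 genes were between 0.0166 and 0.0483 (limma, SE above, n = 3 libraries a group).

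The falls were of genes with varied roles. CSN9 (YDR179C, chromosome IV, 818708 to 819196, minus strand, 1 coding exon), a subunit of the COP9 signalosome, had 111, 199.6 and 126 normalized counts at Yb EC50, against 263, 609.5 and 786 at Yb EC10. Library 7 lay far below libraries 8 and 9 and nearer to the higher dose. The log2 change was -1.83 ± 0.39 (SE, adjusted p = 0.0461), and -2.29 ± 0.34 without library 7. YDL085C-A, a short reading frame without an established role, had 305, 462 and 319 at Yb EC50, against 596, 1278 and 1524 at Yb EC10, a log2 change of -1.56 ± 0.33 (adjusted p = 0.0461).

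POP5, a protein of the RNases P and MRP, had 151, 230.3 and 201 normalized counts at Yb EC50, against 309, 519 and 693 at Yb EC10 (-1.33 ± 0.29). DAD2, of the DASH complex that ties kinetochores to microtubules, had 317, 494 and 321 at Yb EC50, against 598, 996 and 1261 at Yb EC10 (-1.30 ± 0.30). EXP1, which helps the proton pump Pma1 leave the endoplasmic reticulum, had 741, 977 and 828 at Yb EC50, against 1242, 2252 and 2311 at Yb EC10 (-1.14 ± 0.23). In each of these 3, and in CSN9 and YDL085C-A, libraries 8 and 9 lay above all 3 control libraries, and library 7 lay between them and the higher dose. AIM34 had the smallest adjusted p among the named falls (0.0251), with 125, 154 and 132 at Yb EC50, against 208, 339 and 348 at Yb EC10 (-1.09 ± 0.20).

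The remaining falls named were the prefoldin subunit GIM4 (-1.20 ± 0.27), the membrane insertion subunit EMC5 (-1.11 ± 0.24), the recombination protein SHU2 (-0.77 ± 0.17), the glutathione peroxidase GPX2 (-0.74 ± 0.17), the ribosomal protein RPL42B (-0.71 ± 0.15), SHG1 of the Set1 histone methylase complex (-0.67 ± 0.15), YCR090C (-0.65 ± 0.13), YGL194C-A (-0.57 ± 0.13) and the histone-fold protein MHF2 (-0.55 ± 0.13). Their adjusted p-values lay between 0.0415 and 0.0483 (limma, ± SE). Of the 22 falls, 22 were called lower than control at Yb EC50 and 14 had a Yb EC10 mean above the control mean. The 9 falls of at least 2-fold were CSN9, YDL085C-A, POP5, DAD2, GIM4, EXP1, EMC5, AIM34 and YKR075W-A, which the naming rule left out for its low mean (12.8 ± 3.46 at Yb EC50 and 33.7 ± 9.10 at Yb EC10).

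Short genes were lower at the higher dose on median. The falls had a median coding length of 450 bases and the rises 1224, against 1245 over the 5485 genes with a length. Of the 21 falls with a length 13 were under 500 bases (61.9%), against 12.5% of all genes tested, and 3 held an intron (14.3%, against 4.72%). The median log2 change was -0.16 for the 198 genes under 300 bases, -0.09 from 300 to under 500, -0.01 from 500 to under 1000, 0.03 from 1000 to under 2000, 0.04 from 2000 to under 4000 and 0.06 for the 187 genes of at least 4000. Without library 7 the ends of that series were -0.22 and 0.07. The La step ran the other way, with 0.08 for genes under 300 bases and -0.02 for those of at least 4000.

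By library, genes under 300 bases had a median deviation of -0.16, -0.06 and -0.15 log2 units in Yb EC50 libraries 4, 5 and 6, and of -0.04, 0.18 and 0.20 in Yb EC10 libraries 7, 8 and 9. The control libraries 1, 2 and 3 were at 0.11, -0.18 and -0.07, so untreated libraries spread over nearly as wide a range as the Yb libraries. Whether RNA quality or the selection of fragment sizes in these libraries had a part in the falls was not tested. In a setting chosen after seeing the data, a smooth trend on coding length was removed from each library's deviations from the gene means. Then 80 genes were called, 52 higher and 28 lower, and 57 of the 61 were among them. That fit held only the 5485 genes with a length, so YKR075W-A, which is among the 61 and has none, could not be called.

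**Figure D3:**
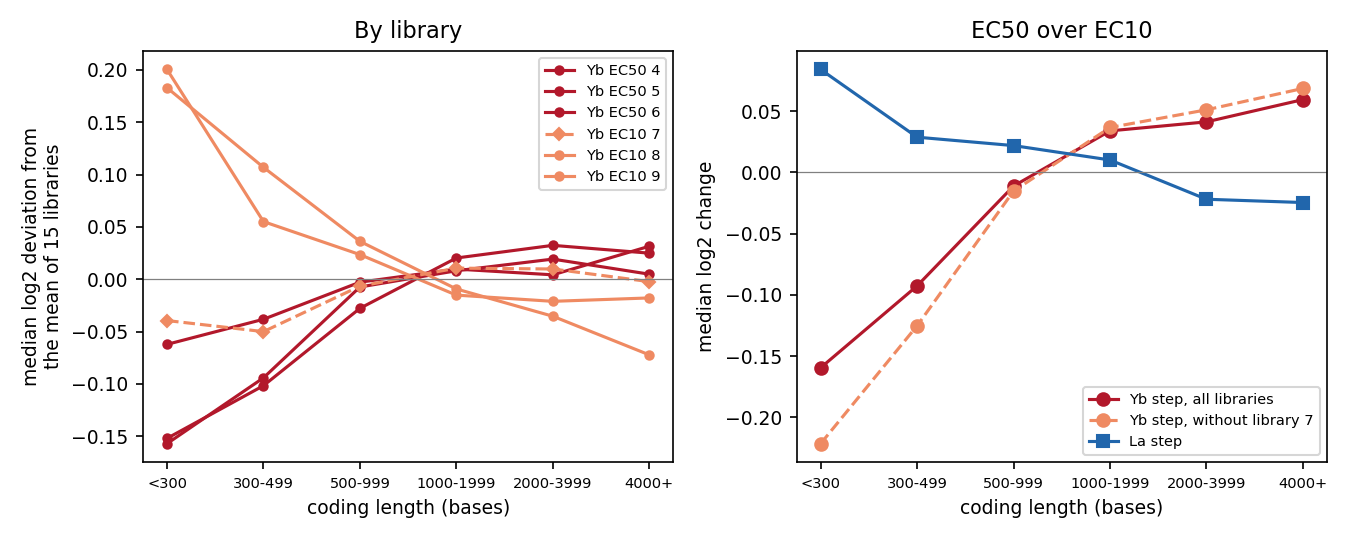
Median log2 deviation of genes in 6 classes of coding length (in bases) from the mean of 15 libraries, by Yb library (left), and median log2 change by class for the Yb step, the Yb step without library 7 and the La step (right). At under 300 bases Yb EC10 libraries 8 and 9 lie at 0.18 and 0.20, with the other 4 Yb libraries below 0.

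General stress genes were higher at the higher dose on median, with few calls by limma. All 41 Msn2/Msn4 targets had a positive log2 change, with a median of 0.49 (against 0.02 over all genes), and NTH1 alone was called by limma, with 29 (70.7%) at an unadjusted p under 0.05, against 19.4% of all genes. DESeq2 called 8 of the 41, against 4.31% of all genes, and edgeR 0. Without library 7 the median was 0.67 and 21 of 41 were called higher, against 4.17% of all genes. Without library 8 the median was 0.26. Median deviations of the list were 1.39, 0.86 and 0.93 log2 units in Yb EC50 libraries 4, 5 and 6, and 0.89, 0.01 and 0.67 in Yb EC10 libraries 7, 8 and 9. Library 7 thus overlapped the higher dose and library 8 was the lowest, while the control libraries stood at -0.60, -0.94 and -0.82.

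Single members, chosen after their values were seen, show the same spread. HSP12 had 5034, 3994 and 3314 normalized counts at Yb EC50, against 3029, 1222 and 2637 at Yb EC10, a log2 change of 0.92 ± 0.35 that was not called (adjusted p = 0.165). HXK1, a hexokinase, had 8439, 5683 and 6083 at Yb EC50, against 5399, 2434 and 4276 at Yb EC10 (0.79 ± 0.22, adjusted p = 0.0669). The catalase gene CTT1 had 538, 351 and 378 at Yb EC50, against 295, 169.6 and 299 at Yb EC10 (0.75 ± 0.20, adjusted p = 0.0626). In all 3 the groups did not overlap, and the lowest library was library 8. Of the 41 stress genes, 18 had every Yb EC50 library above every Yb EC10 library, against 12.2% of all genes tested.

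Trehalose and glycogen genes had a median log2 change of 0.39 with 1 of 20 called by limma, NTH1 (13, or 65.0%, at an unadjusted p under 0.05, 4 by DESeq2, 0 by edgeR). Without library 7, 9 of them were called higher, against 4.17% of all genes. NTH1 had 1254, 989 and 1062 normalized counts at Yb EC50, against 933, 649 and 767 at Yb EC10 (0.50 ± 0.11, adjusted p = 0.0461). The osmotic list had a median of 0.39 with 0 of 16 called by limma (9, or 56.2%, at an unadjusted p under 0.05, 5 by DESeq2, 0 by edgeR). Without library 7, 8 of the 16 were called higher, against the same 4.17% of all genes. Without library 8 the median was 0.17 for the trehalose and glycogen list and 0.21 for the osmotic list. GPD1, the glycerol-3-phosphate dehydrogenase of the osmotic list, had 2427, 1885 and 2191 at Yb EC50, against 1924, 1396 and 1553 at Yb EC10 (adjusted p = 0.0524). Hexose transporters had a median of 0.24 with 0 of 16 called by limma (8, or 50.0%, at an unadjusted p under 0.05, 0 by DESeq2 and by edgeR). The heat shock list stood at 0.06, with 0 of 25 called by limma (6 at an unadjusted p under 0.05, a share near the 19.4% of all genes, 1 by DESeq2, 0 by edgeR).

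**Figure D4:**
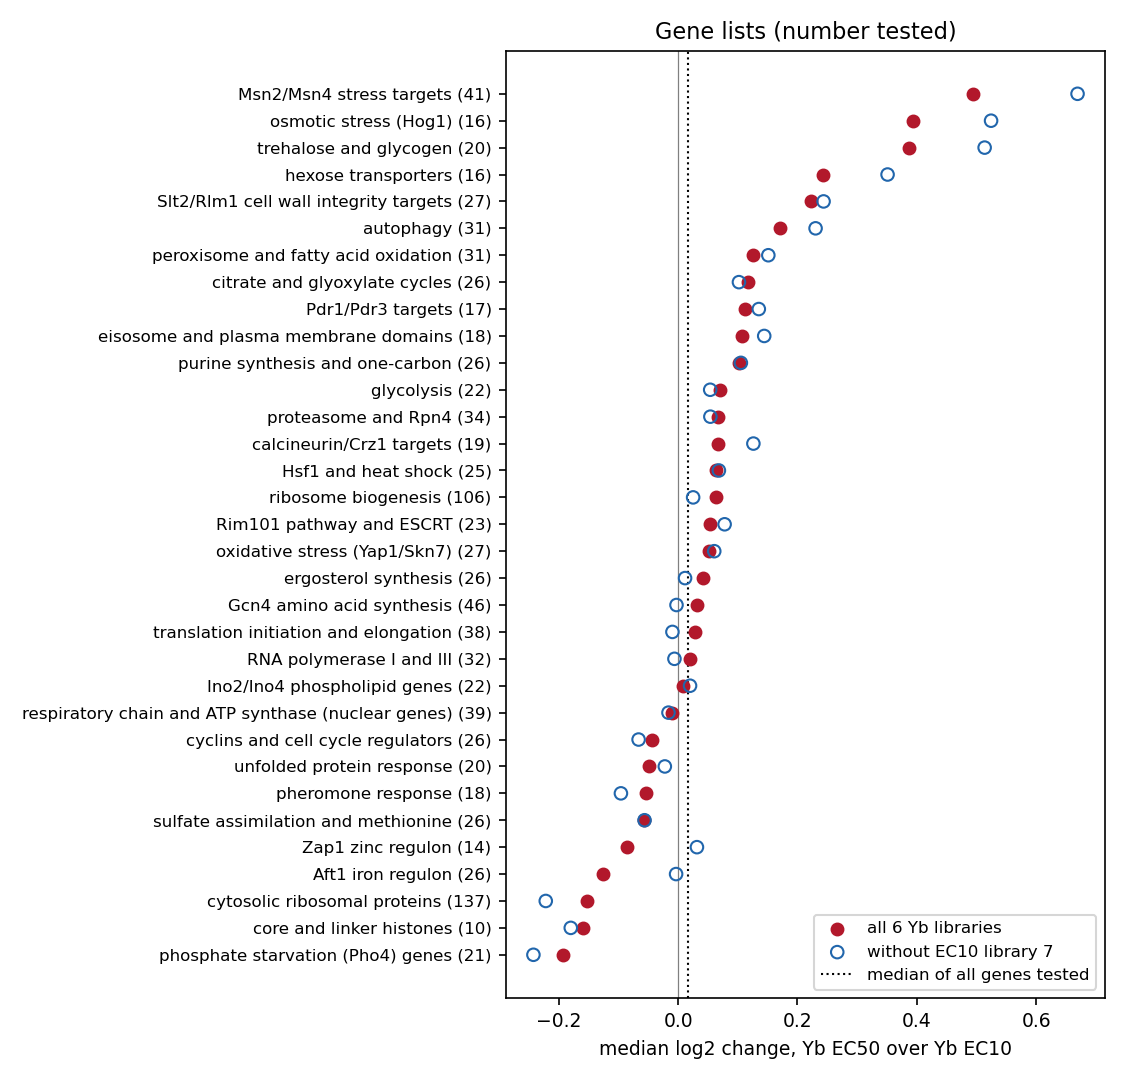
Median log2 change from Yb EC10 to Yb EC50 of 33 gene lists (number of tested members in brackets) with all 6 Yb libraries (filled) and without Yb EC10 library 7 (open); the dotted line is the median of all genes, 0.02. The general stress list lies highest of these 33 lists at 0.49, or 0.67 without library 7, and the phosphate list lowest at -0.19.

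Ribosomal protein genes were lower on median, with a log2 change of -0.15 over 137 genes, 4 of them with a positive change. RPL42B and RPS22B were called lower by limma, 2 of 137, against 0.395% of all genes. At an unadjusted limma p under 0.05 were 49 of the 137 (35.8%, against 19.4% of all genes). DESeq2 called 19, against 4.31% of all genes, and edgeR 0. RPL42B had 5056, 6358 and 5137 normalized counts at Yb EC50, against 7357, 10631 and 9283 at Yb EC10, and RPS22B fell by 0.49 on the log2 scale (adjusted p = 0.0469), an intron-containing gene with a small RNA on its strand. Without library 7, 37 of 137 were called lower, against 5.48% of all genes, and the median was -0.22. With the length trend removed the median was -0.07, and with equal totals it was -0.09. The median coding length of these genes was 432 bases, and the part of length in their change was not tested further. Median deviations were -0.27, -0.04 and -0.13 in Yb EC50 libraries 4, 5 and 6, and -0.13, 0.22 and -0.02 in Yb EC10 libraries 7, 8 and 9, which overlap.

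Ribosome biogenesis genes, the other large class of growth genes, had a median of 0.06, with 0 of 106 called by limma (8, or 7.55%, at an unadjusted p under 0.05, 1 by DESeq2, 0 by edgeR). Without library 7, 6 of the 106 were called lower, against 5.48% of all genes. Core and linker histones had a median of -0.16, with 0 of 10 called by limma (5, or 50.0%, at an unadjusted p under 0.05, 1 by DESeq2, 0 by edgeR). Their median coding length was 399 bases, and all genes of 300 to under 500 bases had a median of -0.09. The part of length in the histone change was not tested. Phosphate starvation genes had a median of -0.19, and 1 of 21 fell, CTF19, a kinetochore protein that overlaps YPL017C on the opposite strand (-0.32 ± 0.07, adjusted p = 0.0483). PHM6, named after its values were seen, had 286, 387 and 335 at Yb EC50, against 412, 761 and 565 at Yb EC10 (adjusted p = 0.0553), a log2 change of -0.75 ± 0.19. PHO84, the high-affinity phosphate transporter, also chosen after its values were seen, had 12091, 13702 and 12808 at Yb EC50, against 14537, 16428 and 14066 at Yb EC10 (adjusted p = 0.173). In both genes the ranges of the doses were apart and the control libraries lay above them, at 988 to 1229 for PHM6 and 21902 to 25746 for PHO84. Of the 21 phosphate genes, 9 had every Yb EC50 library below every Yb EC10 library, against 10.5% of all genes tested.

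In the other lists at most 1 member was called. GPX2 was the 1 of 27 oxidative stress genes, ICT1 the 1 of 17 Pdr1/Pdr3 targets, IDH1 the 1 of 26 citrate and glyoxylate cycle genes and PUN1 the 1 of 18 eisosome genes. None was called, with limma, among lists of the iron, zinc and unfolded protein responses, sulfur, purine and ergosterol synthesis, glycolysis, respiration, the proteasome, RNA polymerases I and III, translation factors, Rim101 with ESCRT, pheromone response, cell cycle and peroxisomes. In these 15 lists 1 to 12 members (at most 34.6% of a list) had an unadjusted p under 0.05, against 19.4% of all genes, DESeq2 called 0 to 3 and edgeR 0. Their medians lay between -0.13 for the 26 iron genes and 0.13 for the 31 peroxisome and fatty acid genes. ZPS1, a zinc-regulated cell wall protein, varied widely within a dose, with 27998, 15876 and 20545 normalized counts at Yb EC50 and 29268, 10063 and 28736 at Yb EC10.

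Promoters were searched on both strands over the 250 bases before the coding start. AGGGG was found in 13 of the 39 promoters of rises (33.3%) and in 4 of 21 of falls, against 19.1% of all 5485 tested and 68.3% of the general stress list. CATGTG stood in 2 of the 39 rises, against 5.49% of all, and in 11 of 22 Ino2/Ino4 genes. INO1 held CATGTG at 2 places, CMK2 and NTH1 held AGGGG once and HSP12 held it at 2 places, as in the sequences above. GNGGCNCA, the core of the Crz1 site, stood in 3 of the 39 rises (7.69%) and in 3.01% of all promoters. It stood in 2 of the 19 calcineurin targets (10.5%), and the CMK2 promoter shown held 0 such sites. The Rlm1 site stood in 1 of 39 rises, in 4 of the 27 cell wall genes and in 0.893% of all promoters. Without library 7, 94 of the 232 promoters of rises held AGGGG (40.5%). A match in a promoter is a description of its letters only.

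More genes were called between either dose and control than between the doses. Called against control were 2276 genes (40.9%) at Yb EC50, 1149 higher (20.6%) and 1127 lower (20.2%), and 1631 genes (29.3%) at Yb EC10, 849 higher (15.2%) and 782 lower. Rescaled to equal totals the splits were 1759 higher and 471 lower at Yb EC50 and 1067 and 454 at Yb EC10, where the median of all genes was 0.11 and 0.07 in place of -0.02 and 0.00. At Yb EC50, 1516 genes were called without library 4, and at Yb EC10, 994 without library 9 and 1070 without control library 2. These comparisons share the Yb libraries with the step. At Yb EC50 and at Yb EC10 the median log2 change from control was 1.84 and 1.30 for the stress list, 1.37 and 1.00 for the cell wall list, and -0.41 and -0.24 for ribosomal proteins. Ribosome biogenesis stood at -0.39 and -0.45. Of the 39 rises 34 were already called higher at Yb EC10.

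The step between the same effect levels for La, EC50 over EC10, covered another range of doses, 50 to 160 µM against 6 to 8 µM of Yb. It called 99 genes (1.78%), 55 higher (0.988%) and 44 lower (0.790%), or 57 and 24 with equal totals. It called 44, 58 and 32 genes without La EC50 libraries 10, 11 and 12, and 46 and 42 without La EC10 libraries 13 and 15. Of the 61 genes of the Yb step 5 were called in it, namely SRL3, MAL33, KTR2 and TPO4, higher in both, and INA1, lower in the Yb step and higher in the La step (the last 3 named after their values were seen). MAL33 had 273, 219.7 and 213 normalized counts at Yb EC50, against 200.2, 136 and 151 at Yb EC10, and 293, 282 and 280.1 at La EC50, against 178, 168 and 158 at La EC10. INO1 was not called along the La step (0.05 ± 0.11), with 711, 787 and 752 at La EC50, against 700.3, 728 and 743 at La EC10.

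The difference between both steps was tested as an interaction in the same fit. It was called for 182 genes (3.27%), 69 with the higher Yb step (1.24%) and 113 with the lower (2.03%), and 26 of the 61 were among them. That number, too, rested on single libraries. It was 34 and 17 without Yb EC50 libraries 4 and 6, and 481, 48 and 33 without Yb EC10 libraries 7, 8 and 9. It was 78 and 16 without La EC50 libraries 11 and 12, and 78, 80 and 46 without La EC10 libraries 13, 14 and 15. Without control libraries 1 and 3 it was 87 and 64. For INO1 it was 0.77 ± 0.16 (SE, adjusted p = 0.0307), for DUR12 1.03 ± 0.16 (adjusted p = 0.00761), for GLN1 0.59 ± 0.15 (adjusted p = 0.0472) and for VID24 0.99 ± 0.19 (adjusted p = 0.0200). Of the 27 cell wall genes 0 differed between the steps by limma, and 5 (18.5%) had an unadjusted p under 0.05, near the 19.2% of all genes. Of the stress list 5 of 41 differed, all with the higher Yb step. The heat shock list had 8 of 25 with the higher Yb step, and 9 of its genes fell along the La step.

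The 5 genes with the largest difference in each direction are plotted by step. HSP26, a small heat shock chaperone, had 1171, 559 and 615 normalized counts at Yb EC50, against 747, 297 and 692 at Yb EC10, which overlap, and 171, 184 and 150.4 at La EC50, against 778, 369 and 780.5 at La EC10. AQR1, a transporter of the plasma membrane, had 1339, 1462 and 1426 at Yb EC50, against 1025, 846 and 647 at Yb EC10, and 538, 1019.5 and 596 at La EC50, against 1297, 1419.6 and 1438 at La EC10, with a log2 change of 0.77 ± 0.20 along the Yb step that was not called (adjusted p = 0.0557) and a fall along the La step (adjusted p = 0.0160). CSN9 had 498, 678 and 852 at La EC50, against 658, 286 and 521 at La EC10, where the second library is La EC10 library 14. That library was the lowest of its group for CSN9, YDL085C-A, TMA7, EFG1, EMC6, HSP26, TDH1 and FMP16, 8 of the 10 genes plotted, and its part in these differences is given by the counts without it in the closing section.

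**Figure D5:**
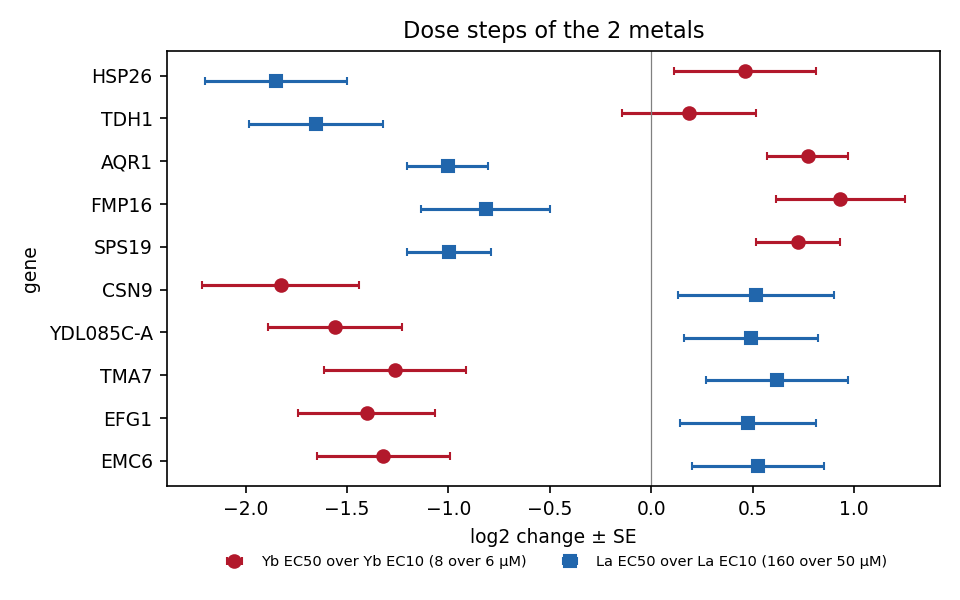
Log2 change ± SE along the Yb step (red circles, 8 over 6 µM) and the La step (blue squares, 160 over 50 µM) of the 5 genes with the largest difference between the steps in each direction. HSP26 stands at 0.46 in the Yb step and -1.85 in the La step, and CSN9 at -1.83 and 0.52.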

How the data were processed

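RNA was sequenced from 15 strand-specific yeast libraries, 3 per group. The deposited signal values are gene counts that the authors divided by 1 size factor per library. Per the submitters' processing notes, the tools included DESeq2 1.14.1, HTSeq 0.6.1p1, TopHat2 2.1.1 and FastQC 0.67 with build R64. What each did, and the strand setting, is not given in the sources used here. Columns were assigned to groups by name. In the columns of the 9 Yb and control libraries every value was a whole multiple, within 0.01, of what 1 read was worth. On these reads edgeR 4.0.16 and DESeq2 1.42.0 were run as alternatives. A count of 0 allows up to 3 reads, or 2.73 to 3.67 normalized counts, for counting error only.

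The test was limma 3.58.1 in R 4.3.3 with a trended prior, on log2(normalized count + 1), with all 15 libraries in 1 fit. Fold changes on this scale understate the change of low genes. P-values were two-sided and Benjamini-Hochberg adjusted over 5568 genes, with 0.05 as the threshold of a call. An exact permutation test of 3 against 3 libraries cannot go below 0.1. On simulated data of the step over 5568 genes the fit recovered 86% of 1.5-fold and 98% of 2-fold changes. These shares describe the simulated data only. The real step gave 0 to 537 calls with 1 library left out. AQR1, 1.68-fold higher at Yb EC50, was not called (limma adjusted p = 0.0557). The share of changes recovered in the real libraries was not tested. The genes named are the 15 largest called changes in each direction with ranges apart and a mean of at least 50 in the higher group, up to 4 called members of each list or its 2 most abundant where none was called, and the 5 largest called differences between the steps in each direction with a mean of at least 50 in 1 of the 4 groups. Members and lists were chosen with earlier results of these data known. The result of 1 gene is not reported here, and counts include it. Sequences, coordinates and coding lengths are from the RefSeq R64 assembly, which gave a length for 98.5% of the genes tested. Scaling, pseudocount, filter, tool and left-out libraries were varied.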

Additional observations from a re-analysis of the deposited data

Results flagged for a closer look

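The log2 change along the Yb step differed from that along the La step, by a test of the difference in the fit to all 15 libraries, in 182 genes. The largest differences with the higher Yb step, among genes with a mean of at least 50, were 2.31 ± 0.50 for HSP26, 1.84 ± 0.47 for the glyceraldehyde-3-phosphate dehydrogenase gene TDH1, 1.78 ± 0.28 for AQR1, 1.75 ± 0.45 for FMP16 and 1.72 ± 0.29 for SPS19, a peroxisomal reductase (log2 units, SE, limma adjusted p 0.00761 to 0.0483). For HSP26 and TDH1 the Yb libraries of both doses overlapped, and the La step alone was called (-1.85 and -1.65). AQR1 and SPS19 were also called along the La step alone, and FMP16 along neither step. The largest with the lower Yb step were -2.34 ± 0.54 for CSN9, -2.05 ± 0.47 for YDL085C-A, -1.89 ± 0.49 for TMA7, a protein associated with the translation machinery, -1.88 ± 0.48 for EFG1, which acts in 18S rRNA maturation, and -1.85 ± 0.46 for EMC6, a subunit of the membrane insertion complex of the endoplasmic reticulum (adjusted p 0.0389 to 0.0497). All 5 had a positive log2 change along the La step, of 0.48 to 0.62, that was not called. Along the Yb step CSN9 and YDL085C-A were called, while TMA7, EFG1 and EMC6 were not (limma adjusted p = 0.0638, 0.0524 and 0.0524). Without Yb EC10 library 7, 481 genes differed, and without La EC10 library 14 it was 80, with 28 in place of 113 of them with the lower Yb step. The part of these libraries in the differences was not tested otherwise.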

How the results depend on the processing

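Against 61 genes called in the step, 25 were called with no filter on low values, 196 with equal totals (135 higher and 61 lower), 127 with quantile normalization, 35 with TMM scaling, 594 with array quality weights, 0 with the 6 Yb libraries alone, 2 with the 6 Yb and 3 control libraries, 2 with edgeR and 240 with DESeq2. Among the 61 were 1 of the 2 genes called with the 6 Yb and 3 control libraries and 1 of the 2 called with edgeR. A pseudocount of 0.5 or 5, a minimum mean of 50 and removal of the length trend gave 60 to 80. Leaving out 1 library at a time gave 0 (without Yb EC50 library 5 or Yb EC10 library 8) to 537 (without Yb EC10 library 7) for the step. It gave 16 to 481 for the difference between the steps, 32 to 125 for the La step, 994 to 1819 for Yb EC10 against control and 1516 to 2394 for Yb EC50 against control. The difference between the steps was called for 74 genes with no filter and 549 with array quality weights, and the La step for 409 with array quality weights. Beyond fewer or more libraries or genes in a fit, the cause was not tested. None of the 39 named genes called in the step changed direction in any of 28 alternatives, and they were called in 9 (MHF2, YGL194C-A) to 22 (INO1, CMK2, GLN1) of them. Of 924 list medians under alternatives 26 changed sign, and none of these was of the stress, osmotic, trehalose, cell wall, phosphate, histone, ribosomal protein or ribosome biogenesis lists. Count tests of the La step and of the difference between the steps were not run, since whole reads were not recovered for La EC50 library 10 and La EC10 library 13. No paired analysis was possible because the columns carry a group and a running number, not the replicate numbers of the labels. Low genes are limited by the depth of 6122514 to 6895514 reads per Yb library.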
